A study of Caenorhabditis elegans with 2 samples.

Results

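The weak far entries are 5298 of the 21766 entries in the list of peaks and background that the authors called on both replicates pooled. They were chosen by their rank and their place: ranked on the authors' signal value, they are the entries that follow rank 5000, with a summit on a nuclear chromosome, more than 1000 bases from every annotated transcript start of any gene type, and outside coding exons. They make up 24.3% of the pooled list and 31.6% of its 16766 entries that follow rank 5000. The list comes from chromatin immunoprecipitation and sequencing of the LIM homeobox protein CEH-14 in whole late embryos of Caenorhabditis elegans. The single group, CEH-14-GFP late embryos, holds 2 biological replicates of strain OP315, a stable transgenic line whose CEH-14 carries a C-terminal GFP-FLAG tag, taken as hermaphrodites 5 hours after synchronization by egg bleaching. Sonicated chromatin was precipitated through the tag with an antibody to GFP, and no control library was analysed here. The labels name no cell type within the embryo, so less binding per cell and fewer cells with binding cannot be told apart in these values. The lists hold no read numbers and depth is therefore unknown.

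LIM homeobox proteins bind DNA through a homeodomain, whose usual target is a short A and T core such as TAATTA, and act with partner proteins that meet their LIM domains. In C. elegans, CEH-14 is known to specify the fate of certain neurons, such as the thermosensory AFD pair. Worm genes are compact, and many of their known regulatory sequences lie close upstream of the start, while longer genes also hold regulatory sequence in introns.

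The sequences below are the bases within 50 of the summit of weak far entries, from the forward strand of the RefSeq copy of WBcel235, the same assembly as ce11. The first 6 hold TAATTA, the hexamer with the lowest p at these summits. The last 2 hold GGGGGA or its reverse complement TCCCCC. Among hexamers more frequent at the summits than in the flanks, GGGGGA is the next by p that is not a shifted copy of TAATTA. Capitals mark these hexamers. The unc-53 and str-71 entries are the highest in signal value with TAATTA on chromosomes II to V and X, the next 3 have the best mean rank in the replicates without overlapping a stronger pooled entry, and the nhr-274 entry has the most copies on those chromosomes.
unc-53 intron, chrII:11065536-11065636: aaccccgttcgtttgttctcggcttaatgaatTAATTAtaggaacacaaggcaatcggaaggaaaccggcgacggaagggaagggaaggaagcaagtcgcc
downstream of the str-71 start, chrV:15456029-15456129: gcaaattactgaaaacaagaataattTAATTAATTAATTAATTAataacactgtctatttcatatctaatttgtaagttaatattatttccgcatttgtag
zyx-1 intron, chrII:13062661-13062761: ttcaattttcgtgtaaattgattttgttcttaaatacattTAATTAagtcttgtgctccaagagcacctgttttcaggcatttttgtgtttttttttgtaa
Y62F5A.9 intron, chrII:11535899-11535999: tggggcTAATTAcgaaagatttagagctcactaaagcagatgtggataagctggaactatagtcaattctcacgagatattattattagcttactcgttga
upstream of ZK1073.1, chrX:16132340-16132440: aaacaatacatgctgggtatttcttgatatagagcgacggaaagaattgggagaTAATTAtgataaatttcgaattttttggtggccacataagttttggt
nhr-274 intron, chrIV:1639407-1639507: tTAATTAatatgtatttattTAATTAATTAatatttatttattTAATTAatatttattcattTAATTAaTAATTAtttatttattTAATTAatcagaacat
rbf-1 intron, chrIII:6697744-6697844: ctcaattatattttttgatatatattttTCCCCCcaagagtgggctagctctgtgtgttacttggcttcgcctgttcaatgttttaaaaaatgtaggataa
cla-1 intron, chrIV:7624253-7624353: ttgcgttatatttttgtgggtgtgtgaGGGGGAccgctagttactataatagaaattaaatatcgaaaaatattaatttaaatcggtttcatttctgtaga
The unc-53 entry, in a gene for a cytoskeletal protein of axon and cell outgrowth, holds 1 copy, and its summit lies 4091 bases downstream of the nearest protein-coding start. The entry 3109 bases downstream of the str-71 start, in an exon of a non-coding gene or pseudogene, holds 4 overlapping copies. The nhr-274 window, in a gene named as a nuclear hormone receptor, holds 7 copies.

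Signal value and distance from starts defined the members, so their values are a description. The member signal value was 28.2 at the median, with a range of 22.4 to 43.4, against 57.1 and a range of 43.4 to 307.5 for the 1168 entries of ranks 1 to 5000 that met the same place rule, called stronger far entries here. The lists do not break at the threshold: the first weak entry had a signal of 43.387 and rank 5000 had 43.388. The first member stood at rank 5003, in an intron of ercc-1, a gene for a DNA repair nuclease subunit, and the last stronger far entry at rank 4995, 1353 bases upstream of F31E8.5. The distance threshold had neighbours on both sides too, with 362 weak entries outside coding exons up to 100 bases past it and 402 up to 100 bases short of it. All 5298 members were 456 bases wide with the summit exactly in the middle.

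The members lay across the whole of the sequence in which the rule allows a summit, with modest differences between chromosomes. Introns of protein-coding genes and intergenic sequence held them near in proportion to their length. Untranslated regions held more, and non-coding genes and pseudogenes fewer. Introns of protein-coding genes held 2520 of them (47.6%, 95% Wilson interval 46.2 to 48.9), and introns make up 47.6% of the 33895096 allowed bases. Intergenic sequence held 2327 members (43.9%, interval 42.6 to 45.3), against 43.4% of allowed bases. Untranslated regions held 352 members (6.64%, interval 6.0 to 7.35), against 5.01% of allowed bases, and stood at 207.1 members per megabase (Mb). Exons of non-coding genes or pseudogenes held 59 members (1.11%, interval 0.864 to 1.43), against 2.29% of allowed bases. Introns of genes that are not protein-coding held 40 (0.755%, interval 0.555 to 1.03), against 1.71%. The densities there were 76.1 and 69.2 per Mb, against 156.1 in introns of protein-coding genes and 158.3 in intergenic sequence. Of the stronger far entries 39.7% lay in introns of protein-coding genes (interval 37.0 to 42.6) and 55.6% in intergenic sequence (interval 52.7 to 58.4). These intervals, like those below, cover counting error only.

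Introns that held members were long, with a median of 1110 bases against 68 bases for all annotated introns, as the distance rule favours. First introns of a transcript held 584 of the 2520 intron members (23.2%, interval 21.6 to 24.9), against 16.2% of the allowed bases in such introns. Among intergenic members, 1647 (70.8%, interval 68.9 to 72.6) lay upstream of the nearest protein-coding start, against 68.3% of allowed intergenic bases. Their median distance from that start, both sides counted, was 2543 bases. The distance to the nearest start of any gene was 1976 bases at the median and 14359 bases at most, against a median of 2000 bases over all allowed bases.

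Per Mb of all allowed sequence there were 156.3 members and 34.5 stronger far entries. Members were densest on chromosomes III, I and II, with 175.6, 172.6 and 171.3 per Mb, and sparsest on chromosomes X, IV and V, with 145.7, 144.9 and 130.8 per Mb. On chromosome IV only 25.2% of the sequence met the place rule, against 29.3% to 40.1% on the others. By distance, members numbered 159.0 per Mb at up to 2000 bases from a start, 164.7 between 2000 and 3000, 151.4 between 3000 and 5000, 128.8 between 5000 and 10000 and 103.8 beyond 10000 bases, where there were 28.

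**Figure D1:**
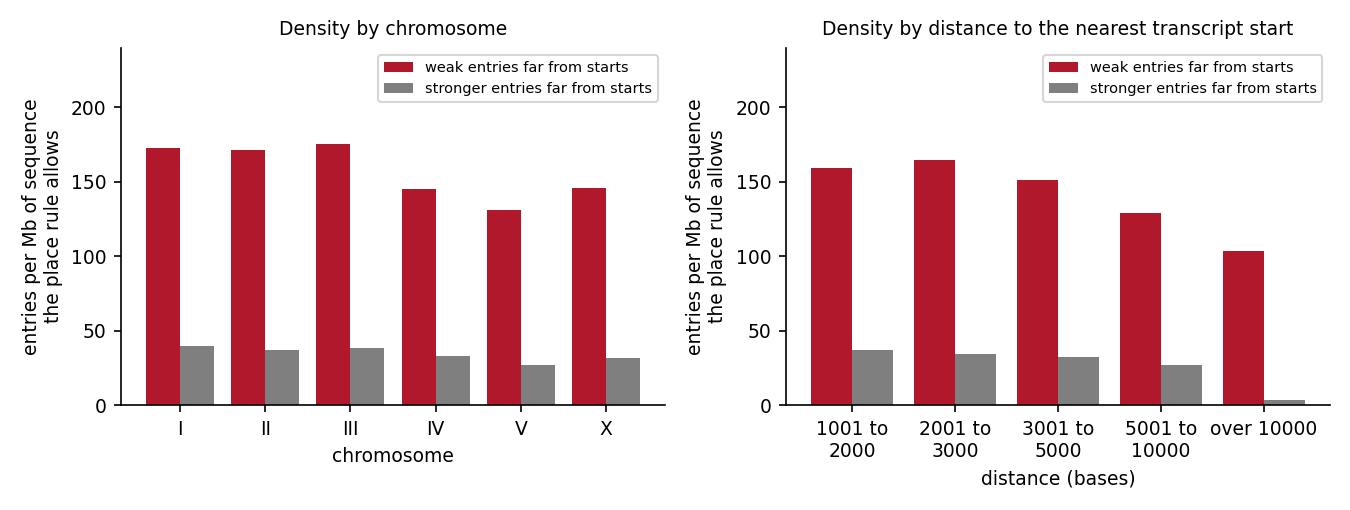
Entries per Mb of sequence that meets the place rule, by chromosome (left) and by distance of the summit from the nearest transcript start (right), for weak far entries and stronger far entries of the pooled list. Weak far entries run between 130.8 and 175.6 per Mb over the chromosomes, and down to 103.8 per Mb beyond 10000 bases.

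Among the 10 members farthest from any start, the first lay 14359 bases from its nearest start, in an intron of Y52B11A.4 on chromosome I, at rank 13122 with a signal of 28.7. It overlapped no entry of replicate 1 and an entry of signal 25.6 in replicate 2. An intergenic member on chromosome IV, 13116 bases downstream of the start of egl-4, the cGMP-dependent protein kinase, had a pooled signal of 35.4 and was likewise listed in replicate 2 alone, at 23.5. Another, 12251 bases upstream of cdh-7, a cadherin gene, had 36.2 in the pooled list, 17.4 in replicate 1 and 17.1 in replicate 2. Of these 10 members, those listed in both replicates and those listed in replicate 1 or 2 alone are thus mixed.

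The members fell into many genes, few in each, and long genes came first. Of 19973 protein-coding genes, 1975 (9.89%) held a member within the gene body, and 2886 members lay inside such a gene. A single member was held by 1440 of these genes, 5 or more by 46 genes and 10 or more by 4. Host genes had a median length of 6149 bases, against 2027 bases for all protein-coding genes, as the distance rule favours. The place rule allowed a summit in 12962 of the 19973 genes, and 15.2% of these held a member. Hosts had a median of 2437 allowed bases, against 589 over all genes with allowed bases. Of the hosts, 249 also held a stronger far entry.

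The host with most members was hmr-1, the classical cadherin gene, with 17 members in 36553 allowed bases on chromosome I. The next were kin-1, the catalytic subunit of protein kinase A, and Y48C3A.5 with 11 each, and mpz-1, a scaffold protein with many PDZ domains, with 10. These genes are long, between 33149 and 58913 bases, and their densities were 46.5 to 60.3 members per 100 kb of allowed sequence, against 16.2 over all protein-coding genes. With 9 members each followed lin-14, a heterochronic regulator of larval timing, pde-3, a cyclic nucleotide phosphodiesterase, crh-1, the CREB homologue, and daf-2, the insulin-like receptor. In lin-14 these 9 members lay in 8266 allowed bases, 108.9 per 100 kb, the highest density among the 20 leading hosts. With 8 members came zig-8, a secreted immunoglobulin-domain protein, the ERG-type potassium channel unc-103, the calmodulin-dependent kinase kinase ckk-1, the Eph receptor vab-1, marc-5 and the TIR-domain adaptor tir-1. With 7 members the rule took T04C9.1, the zinc finger gene ccch-1, the DYRK kinase mbk-2, the Ras GTPase-activating protein gap-3, the calcium-activated potassium channel kcnl-2 and the calcium channel unc-2. The rule names 20 hosts, and 7 genes had 7 members, of which the 6 densest are given.

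Across gene lists, members per allowed base differed widely between the lists that held over 20 members. Axon guidance, adhesion and matrix genes held 117 members in 45 of 86 genes, 32.2 per 100 kb, and panneuronal and synaptic genes held 32 in 17 of 32 genes, 28.7 per 100 kb. Genes of G protein and second messenger signalling held 66 in 31 of 68 genes, 25.9 per 100 kb. Over all protein-coding genes 9.89% were hosts and the density was 16.2 per 100 kb. Stronger far entries numbered 21, 4 and 18 in these lists, in the same order. Over all protein-coding genes they numbered 512, and members 2955, each counted once for every gene they lie in. Body muscle genes held 23 members, 20.8 per 100 kb, and voltage-gated and potassium channels 52, 17.6 per 100 kb. Below the density of all genes were ligand-gated channels at 15.01, nuclear hormone receptors at 14.2, homeobox genes at 13.9 and peptide and amine receptors at 12.3 per 100 kb. The lowest was that of the 1365 chemoreceptor genes, with 28 members in 28 genes, 8.06 per 100 kb of 347455 allowed bases. No test was made of these lists, whose genes differ in length: the median gene was 8492 bases long in the axon guidance list and 1640 bases among the chemoreceptors.

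**Figure D2:**
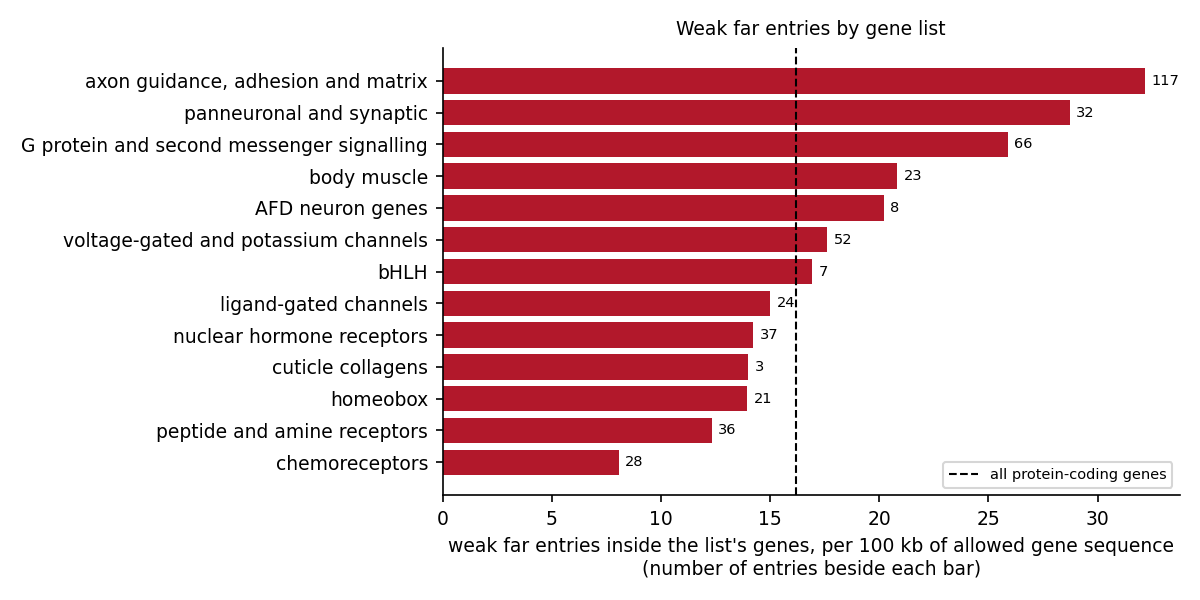
Weak far entries inside the genes of each list, per 100 kb of allowed sequence within those genes, with the number of entries beside each bar and the density over all protein-coding genes as a dashed line. Axon guidance, adhesion and matrix genes stand at 32.2 and chemoreceptors at 8.06 per 100 kb, either side of 16.2 over all protein-coding genes.

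Within these lists the leading hosts were genes of known roles. In the axon guidance list hmr-1, zig-8 and vab-1 were followed by unc-53 with 6 members. Synaptic hosts were led by unc-13, needed for vesicle priming, with 6, then syd-2, the liprin-alpha of active zones, ida-1, a dense-core vesicle protein, and the active zone protein cla-1, with 3 each. Signalling hosts after kin-1 and pde-3 were the phosphodiesterase genes pde-4 with 5 and pde-2 with 3. Among homeobox genes, vab-7, the even-skipped homologue, held 4 members in 3998 allowed bases, and the other 17 hosts held 17 in all. Of bHLH genes, hlh-30, the TFEB homologue, held 4, the E protein gene hlh-2 held 2 and the MyoD homologue hlh-1 held 1. Muscle hosts included zyx-1 (zyxin) and ttn-1 (titin) with 3 each, and unc-15 (paramyosin) and lev-11 (tropomyosin) with 2 each. Nuclear hormone receptor hosts were led by nhr-19 and nhr-27 with 4 each, with 41546 allowed bases in nhr-27. Receptor hosts were led by npr-4, a neuropeptide receptor, with 4, and gar-2, a muscarinic acetylcholine receptor, with 3.

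Genes of AFD neurons held 8 members in 7 of 20 genes, 20.2 per 100 kb: cmk-1, a calmodulin-dependent kinase, with 2, and among single hosts tax-4, a cGMP-gated channel subunit, and gcy-23, a guanylyl cyclase. The ceh-14 gene itself held 0 members in 2193 allowed bases, and of the other LIM homeobox genes lim-6 held 1 while lim-4, lim-7, lin-11, mec-3 and ttx-3 held 0, each with 1006 to 5186 allowed bases. At 156.3 members per Mb such short stretches would hold few entries, so these zeros carry little weight. Ribosomal protein genes had 571 allowed bases and 0 members. Cuticle collagen genes held 3 members in 21433 allowed bases, in rol-6, col-52 and col-46.

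A minority of the members was also listed in the separate lists of both replicates. With an overlap of at least 1 base, 1844 members (34.8%, interval 33.5 to 36.1) met an entry in both replicates' lists, 1485 (28.0%) in replicate 1 alone, 1469 (27.7%) in replicate 2 alone and 500 (9.44%) in neither. Of the stronger far entries, 95.3% met both (interval 93.9 to 96.4) and 0 met neither. The pooled list was made from the same reads, so presence in a replicate is a description and no independent test. As a background, an entry of the same width placed at any allowed base would meet replicate 1 at 15.2% of bases, replicate 2 at 14.01% and both at 6.30%. The replicates took near-equal parts, with 62.8% of members met in replicate 1 and 62.5% in replicate 2.

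Presence in both replicates was lower further down the ranks. Members up to rank 10000 met both replicates in 65.2% of 1461 cases, those between ranks 10000 and 15000 in 32.9% of 1612 and those beyond rank 15000 in 16.2% of 2225. In neither replicate were 0.205%, 3.72% and 19.6% of the same bands. A closer match left fewer: 27.5% of members met both replicates with a reciprocal overlap of 50%, 14.8% with all summits within 100 bases and 8.70% within 50 bases, against 93.1%, 78.8% and 53.1% of stronger far entries. Among members met in both, the signal values of the 2 replicates had a Spearman correlation of 0.23 over 1844 entries, against 0.46 over 1113 stronger far entries. Both values describe lists cut at a lower end, from reads that also made the pooled list.

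**Figure D3:**
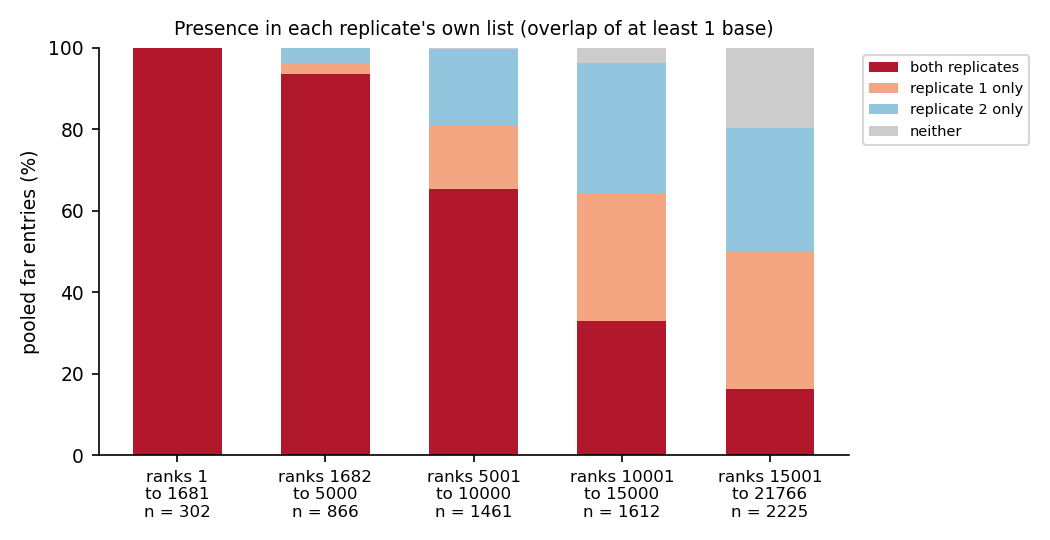
Share of pooled far entries that overlap an entry in the list of both replicates, replicate 1 only, replicate 2 only or neither, by rank band in the pooled list, with the number of entries under each bar. All 302 entries of ranks 1 to 1681 meet both replicates, and 16.2% of those beyond rank 15000 do.

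Some members lay beside a stronger entry: 314 members (5.93%) overlapped a pooled entry of ranks 1 to 5000 and 87 overlapped a peak kept by the irreproducible discovery rate. The 10 members with the best mean rank in the replicates stood at ranks 61 to 730 there, while their pooled ranks ran from 5025 to 21646. A member in an intron of mpk-1, the ERK homologue, had a pooled signal of 43.3, and 67.5 and 99.3 in replicates 1 and 2. Such replicate values belong to the strongest overlapping entry, which can be that of the neighbour. Of the 1844 members met in both replicates, 1543 overlapped no stronger pooled entry.

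Among those 1543, an intergenic member 1297 bases upstream of F52G2.3 on chromosome IV led by mean rank, at 1456 in replicate 1 and 580 in replicate 2, with signals of 38.3 and 66.5 and a pooled signal of 33.7. Next came an intergenic member near Y49G5A.1, with 30.3 in replicate 1 and 30.7 in replicate 2, and one in an intron of unc-2, with 26.1 and 34.7. Upstream of lin-14, 2 members 205 bases apart, with pooled signals of 40.4 and 24.9, met the same entries, of 35.6 in replicate 1 and 25.1 in replicate 2. A member in an intron of kin-1 had 21.3 in replicate 1 and 43.3 in replicate 2, and one in an untranslated region of gpb-1, the G protein beta subunit, had 29.6 and 25.1. This order was set after the values were seen, to leave out members beside stronger entries.

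Most members stood alone: 4516 had no other member within 700 bases, and 22 runs held 3 members, the most in any run. Some runs of 3 lay in introns of leading hosts: hmr-1, Y48C3A.5, pde-3, unc-103, lin-14 and ccch-1. Others lay in introns of mrpl-30, mig-10, olrn-1 and pcdr-1, which are not among the leading hosts named above. The remaining runs lay wholly or partly in intergenic sequence, such as those upstream of txt-7, pry-1 and mkk-4.

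At the summits of all members, TAATTA had the smallest p of the 2080 hexamers, a place it did not keep where coding exons or masked bases were left out. Within 50 bases of the summit 560 of 5298 members (10.6%, interval 9.77 to 11.4) held it, against 269 (5.08%, interval 4.52 to 5.70) in a pair of flanks 300 bases to either side that together are as long, a ratio of 2.08 (exact McNemar test, two-sided, Benjamini-Hochberg adjusted p = 8.81e-24 over 2080 hexamers). Of all windows of that length in the allowed sequence, 5.44% held TAATTA. Its share in 20-base steps was highest at the summit, 2.42% of members, and 0.944% to 1.00% at the ends of the range 500 bases away. The word is its own reverse complement, so both strands are counted alike.

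The flanks differ from the summits in a way the rule sets: 14.6% of flank bases and 2.99% of summit window bases were coding, since a summit may not lie in a coding exon. Of the members, 3254 (61.4%) had no coding exon within 400 bases of the summit. There TAATTA was held by 300 (9.22%) at the summit and 170 (5.22%) in the flanks, a ratio of 1.76 (exact McNemar test, adjusted p = 3.81e-08). The excess therefore was also measured where no flank was coding, with a smaller ratio. By p TAATTA stood at place 11 there, behind 9 lowered hexamers and AGAGAG, a GA repeat word held by 11.4% of summits and 6.76% of flanks, a ratio of 1.69 (exact McNemar test, adjusted p = 1.17e-08). With unmasked bases only in all members it stood at place 7.

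TAATTA was higher at the summit than in the flanks in each rank band, chromosome and replicate class examined, over all members and so with coding sequence in some flanks. Its ratio was 1.90 up to rank 10000, 2.57 between ranks 10000 and 15000 and 1.90 beyond rank 15000, with 10.3%, 11.8% and 9.89% of summits. It was 1.71 among members met in both replicates, 2.51 and 2.38 among those met in replicate 1 or 2 alone and 1.72 among the 500 met in neither. By chromosome it lay between 1.84 on II and 2.53 on V, and by class it was 2.37 in introns of protein-coding genes, 1.69 in intergenic sequence and 3.00 in untranslated regions. In the 314 members that overlapped a stronger pooled entry the summit share was 6.69% and the flank share 7.01%, a ratio of 0.955. Taking only the lists of single replicates, the same rule gave 2.00 without replicate 1 (n = 4518) and 1.69 without replicate 2 (n = 5072). In the 175 members whose windows hold no soft-masked base (soft-masking marks repeats and low-complexity sequence in the RefSeq copy), a set chosen after the data were seen, 5 summits and 6 flanks held it, a ratio of 0.833.

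**Figure D4:**
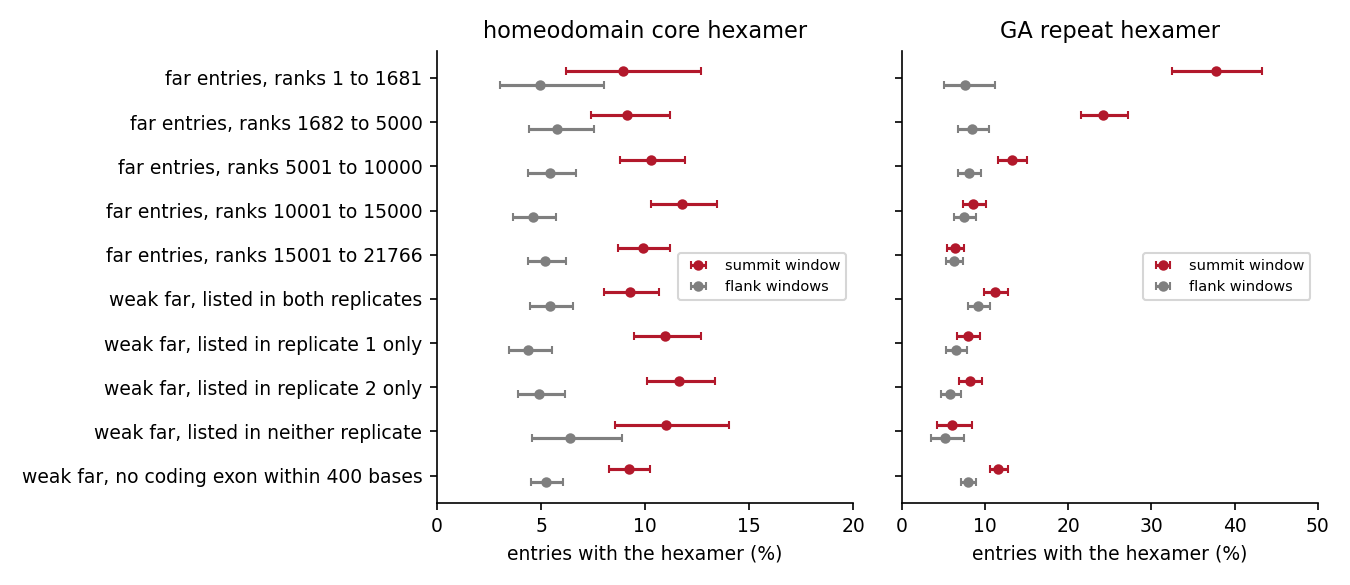
Share of far entries that hold the homeodomain core hexamer (TAATTA, left) or the GA repeat hexamer (GAGAGA, right) in the summit window and in the flank windows, with 95% Wilson intervals, by rank band of the pooled list, by presence of weak far entries in the replicates, and for the 3254 weak far entries with no coding exon within 400 bases. Summit shares of the homeodomain core stay between 8.94% and 11.8% in all rows, while those of the GA repeat run from 37.8% at ranks 1 to 1681 down to 6.38% beyond rank 15000.

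Over all hexamers, 115 of 2080 (5.53%) were more frequent at the summits and 97 (4.66%) less frequent at an adjusted p under 0.05 (exact McNemar test). On simulated summits placed at random in the allowed sequence this test also called hexamers, which it did not where no coding exon lay within 400 bases. Calls over all members can therefore include an effect of coding flanks, whose size was not tested. With the lists of single replicates 67 were more frequent without replicate 1 and 55 without replicate 2. Among the 3254 members with no coding exon near, 129 (6.20%) were more frequent and 89 (4.28%) less frequent, of which 67 and 38 were called in the same direction in all members. Of the 115, 86 had 4 or more G or C, out of 720 such hexamers, and 13 were made of A and T alone, out of 36. In the members with no coding exon near, 99 of the 129 had 4 or more G or C, and 2 were made of A and T alone.

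The leading words after TAATTA were of these kinds. ATTAAT, which shares 4 letters with it by shift, was held by 9.17% of summits and 5.55% of flanks, a ratio of 1.65. With no coding exon near, the ratio of ATTAAT was 1.42 (exact McNemar test, adjusted p = 0.00745). AATTAA had a ratio of 1.29 in all members and was not called with no coding exon near, at 1.10 (exact McNemar test, adjusted p = 0.290). TAATAA had a ratio of 1.37 in all members and was likewise not called there, at 1.13 (exact McNemar test, adjusted p = 0.319). GGGGGA was held by 5.42% of summits and 3.11% of flanks, a ratio of 1.74, and by a ratio of 1.96 with no coding exon near. CCCCCC had a ratio of 1.99, AGGGGG 1.76, GCGCGA 2.05, CGCGCG 2.90 and ACACAC 1.58, and all 5 were also called with no coding exon near, with ratios of 1.92, 1.66, 1.76, 3.00 and 1.47. Lower at the summits were A and T rich words: TTCAAA was held by 25.5% of summits and 32.3% of flanks, a ratio of 0.788, and the ratio was 0.804 for TCAAAA, 0.884 for AAAATT and 0.856 for AAATTT. With no coding exon near, these 4 ratios were 0.728, 0.735, 0.757 and 0.716, in the same order. TTCCAA and AACTTC were lower too, with ratios of 0.768 and 0.715 in all members and 0.758 and 0.720 with no coding exon near.

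Of the other words looked at, TAATTG, a homeodomain core that differs at its last letter, had a ratio of 1.05 and was not called (exact McNemar test, adjusted p = 0.698), and 1.02 with no coding exon near. GATAAG, the core bound by GATA factors, had a ratio of 0.757 (exact McNemar test, adjusted p = 0.065). Of the E-box words, CACGTG had a ratio of 0.973, while CAGCTG had 0.923. CACACA had a ratio of 1.44 and AAAAAA of 0.907. With no coding exon near, the ratio was 0.727 for GATAAG, 0.952 for CACGTG, 1.23 for CAGCTG, 1.43 for CACACA and 0.808 for AAAAAA, and CACACA and AAAAAA were the ones called (exact McNemar test). The GC content was 37.2% at the summits and 36.1% in the flanks, a difference of 1.09 ± 0.16 percentage points (SE over 5298 members), and 3.03 points with no coding exon near. At the summits of the stronger far entries it was 44.5%, against 36.2% in their flanks. Soft-masked bases were 38.3% of summit and 37.3% of flank bases of members, and 22.7% and 36.1% in stronger far entries.

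GAGAGA, the GA repeat, parted the members from the stronger far entries most plainly among the words looked at. It was held by 475 members (8.97%) at the summit and 379 (7.15%) in the flanks, a ratio of 1.25 (exact McNemar test, adjusted p = 0.0135). By class, 265 intergenic members held it at the summit and 162 in the flanks, a ratio of 1.64, while in introns of protein-coding genes 169 members held it at the summit and 169 in the flanks, a ratio of 1.00. The difference between the classes was not tested. In stronger far entries its ratio was 3.38, with 27.7% of summits, and the difference between the sets of entries was significant (two-sided Fisher's exact test on entries that hold the word on 1 side only, adjusted p = 8.49e-15 over 2080 hexamers). With no coding exon within 400 bases the ratios were 1.46 in members and 3.398 in stronger far entries (adjusted p of the difference = 6.45e-09). Down the ranks its summit share was 37.8%, 24.2%, 13.3%, 8.62% and 6.38% at ranks 1 to 1681, up to 5000, up to 10000, up to 15000 and beyond 15000, with flank shares between 6.29% and 8.43%. Its call among members was lost with windows of 25 bases to each side of the summit, with 1 member per run, beyond rank 10000 and with unmasked bases only (adjusted p = 0.206, 0.0563, 0.730 and 0.118, exact McNemar test).

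For TAATTA no difference between members and stronger far entries passed the test. The stronger far entries held it in 9.08% of summits (interval 7.56 to 10.9) and 5.57% of flanks (interval 4.39 to 7.03), a ratio of 1.63 against 2.08 in members (Fisher's exact test of the difference, adjusted p = 0.409), which does not show that they are alike. The 7798 weak entries within 1000 bases of a start and outside coding exons held it in 10.8% of summits and 5.91% of flanks. Altogether 299 hexamers (14.4%) differed between members and stronger far entries at an adjusted p under 0.05, 155 with the higher summit to flank balance in members and 144 with the higher in stronger far entries. Those higher in members included A and T rich words with a lower share at the summit than in the flanks of both sets, among them AAAATT, whose ratio was 0.884 in members and 0.487 in stronger far entries (Fisher's exact test, adjusted p = 9.82e-15), and 0.757 and 0.440 with no coding exon near (Fisher's exact test, adjusted p = 4.27e-07). TAATAA had a ratio of 1.37 in members and 0.690 in stronger far entries (Fisher's exact test, adjusted p = 3.88e-05), and 1.13 and 0.626 with no coding exon near (Fisher's exact test, adjusted p = 0.00876).

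**Figure D5:**
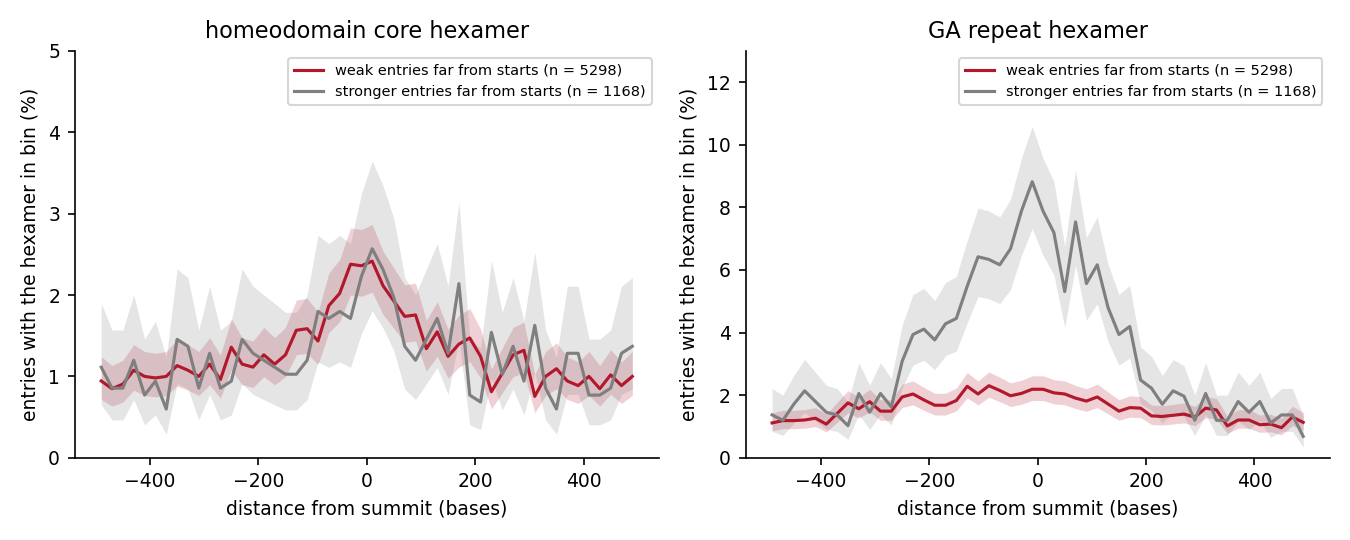
Share of entries that hold the homeodomain core hexamer (TAATTA, left) or the GA repeat hexamer (GAGAGA, right) in 20-base bins by distance from the summit, for weak far entries and stronger far entries, with 95% Wilson bands. Both sets peak at the summit for the homeodomain core, at 2.42% and 2.57%, while the GA repeat reaches 2.30% in weak and 8.82% in stronger far entries.

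More than 1 copy of TAATTA within the window was found in 67 members at the summit and 17 in the flanks, and 3 or more copies in 17 at the summit and 0 in the flanks. In all, 14 host genes held 2 or more members with TAATTA at the summit, among them hmr-1, crh-1, unc-103, unc-13, syd-2 and tol-1, the Toll receptor gene. Among members with TAATTA on chromosomes II to V and X, the highest in signal value after the unc-53 and str-71 entries shown above was an intergenic one 1657 bases downstream of the start of orai-1, the store-operated calcium channel, with a pooled signal of 43.1, 22.9 in replicate 1 and no entry in replicate 2. The zyx-1 entry shown above had a pooled signal of 36.5, 21.1 in replicate 1 and 31.2 in replicate 2, and the ZK1073.1 entry had 41.9, 25.96 and 23.8. The nhr-274 entry, with the most copies, had a pooled signal of 28.5, no entry in replicate 1 and one of 20.2 in replicate 2.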

How the data were processed

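Both replicates of CEH-14-GFP late embryos form 1 group and were used. Per the labels' records, the authors called a relaxed list of peaks and background on the alignment of each replicate and on both pooled. The tools for this were not given in the sources used here. Entries are ranked and described within each list by the deposited signal value, whose scale differs from list to list. It gives no read number, so depth is unknown. The ce11 lists were used with Ensembl 115 gene models and the RefSeq sequence of WBcel235, the same assembly; no entry passed the end of its chromosome. Lists in ce10 were not used here.

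Each summit was placed by script (Python 3.11.15, numpy 2.4.6, pandas 2.3.3, scipy 1.17.1). Presence in a replicate needed an overlap of at least 1 base, and the strongest overlapping entry gave its rank and signal. Hexamers on either strand were counted by a base near their middle within 50 bases of the summit and in 2 flanks, 300 bases to either side and together as long, tested with McNemar's exact test, two-sided, and adjusted by Benjamini-Hochberg over 2080 hexamers at 0.05. The difference from stronger far entries was tested with Fisher's exact test. Neighbouring members share sequence, so these tests treat entries as independent where some are not. The tests were checked on simulated summits. TAATTA was recovered where planted, but with nothing planted the McNemar test still called hexamers at random allowed positions, and called none at those with no coding exon within 400 bases. The place rule bars coding exons at the summit but not in the flanks, so the leading sequence results are also given for members with no coding exon within 400 bases, an alternative listed with the others; counts by rank, chromosome, class and copy number are over all members.

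Genes were named by a rule: the 20 hosts with most members (ties by density), up to 4 hosts per gene list, and hosts of members that are strongest, farthest from starts or best ranked in the replicates. Hexamers named were the 10 higher and 6 lower with the smallest p, and a short list of known words. The members, the gene lists and the tests were chosen with earlier results of these data known.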

Additional observations from a re-analysis of the deposited data

How the results depend on the processing

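TAATTA kept its direction and its call under 11 of 12 alternatives, with ratios of 1.68 to 2.19 and the smallest p of all hexamers under 9 of the 12. It stood at place 11 with no coding exon near, at place 7 with unmasked bases only and at place 1481 in the exception. The exception, chosen after the data were seen, kept the 175 members with no soft-masked base in the windows read, where 5 summits and 6 flanks held it (ratio 0.833) and GAGAGA had a ratio of 0.682; 0 hexamers were raised there, also by the exact McNemar test, and the set is small. Counting unmasked bases only in all members, also chosen after the data were seen, gave 1.68 for TAATTA and 73 hexamers raised, and GAGAGA was not called at 1.22. There 238 summits and 142 flanks held TAATTA, against 560 and 269 with masked bases counted too. GAGAGA was likewise not called with windows of 25 bases (1.24), with 1 member per run (1.21) or beyond rank 10000 (1.08). The count of hexamers raised, 115, was 47 with windows of 25 bases, 195 with 100 bases, 311 with flanks 500 bases away, 243 beyond rank 1681 and 28 beyond rank 10000. GC at summits minus flanks, 1.09 points, was 0.702 with windows of 25 bases, 2.23 with flanks 500 bases away, 3.03 with no coding exon near, 1.91 beyond rank 1681, 0.563 beyond rank 10000 and 2.35 with no masked base. Hexamers that differ from stronger far entries, 299, numbered 139 with windows of 25 bases, 153 with no coding exon near and 117 against stronger far entries beyond rank 1681. The share met in both replicates, 34.8%, was 43.1% beyond rank 1681, 23.2% beyond rank 10000, and 27.5%, 14.8% and 8.70% with closer matches. Members numbered 2603 at over 2000 bases from starts, and the intron share was 42.2% with protein-coding starts only and 51.6% with no exon of any kind. In the list of each single replicate, members numbered 4518 to 5072, 46.6% to 48.3% lay in introns, 55 to 67 hexamers were raised, TAATTA had ratios of 1.69 to 2.00, GAGAGA of 1.31 to 1.33, and GC differed by 0.497 to 0.767 points. The causes were not tested. Requiring no soft-masked base within 400 bases left 24 members and gave no value. No paired analysis was possible because the samples form 1 group.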

Other observations

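The bases beside TAATTA were looked at after the hexamer results were seen, and the counts are a description with no test. Members held 653 copies at summits and 286 in flanks. With T before and A after it there were 173 copies at summits and 38 in flanks, with A on both sides (or T on both, its complement) 163 and 73, and with C before and G after it 27 and 6. The counts were closer with A before and G after it or the complement, 50 and 37, and with A before and C after, 32 and 24. The other 5 contexts had 12 to 63 copies at summits and 6 to 32 in flanks, each more at summits. Cores in opposite orientation, TAAT and then ATTA, with 2 bases between were held by 75 summits and 26 flanks, with 1 base between by 46 and 22, with 3 by 42 and 20, with 4 by 48 and 27, with 5 by 54 and 24 and with 0 by 37 and 28. In runs such as the one at the nhr-274 entry these words overlap each other and TAATTA.

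Among members inside listed genes, counted once for each gene they lie in, TAATTA lay at the summit of 339 of 2955 over all protein-coding genes (11.5%). Above that share stood 2 of 8 in AFD neuron genes (25%), 6 of 28 in chemoreceptor genes (21.4%), 5 of 32 in panneuronal and synaptic genes (15.6%), 3 of 21 in homeobox genes (14.3%), 5 of 36 in peptide and amine receptors (13.9%), 3 of 24 in ligand-gated channels (12.5%) and 14 of 117 in axon guidance, adhesion and matrix genes (11.97%). Near or below it stood 6 of 52 in voltage-gated and potassium channels (11.5%), 4 of 37 in nuclear hormone receptors (10.8%), 6 of 66 in G protein and second messenger signalling (9.09%), 2 of 23 in body muscle genes (8.70%), 0 of 7 in bHLH genes and 0 of 3 in cuticle collagens. These shares rest on few members and were not tested.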
